A study of Mus musculus with 6 samples.

Results

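The 6 mouse genes that encode conventional actins were followed in neonatal heart muscle cells with and without the M90I variant of RIT1, a GTPase of the RAS family. They were chosen by symbol, as Actc1, Acta1, Acta2, Actg2, Actb and Actg1, and each was matched by its Ensembl gene ID to a row of the expression table. All 6 were present among the 54532 genes listed, and all 6 were above the level needed for testing, as were 13794 genes in all. RNA-seq was performed on primary cardiomyocytes from neonates whose Rit1 locus was engineered so that Cre recombinase turns on the M90I allele. On day 3 of culture the cells received adenovirus encoding GFP alone (AdGFP, 3 samples, labelled Rit1 +/+) or GFP with Cre (AdCre, 3 samples, labelled Rit1 M90I/+). Both groups thus share the engineered locus, the viral infection and GFP, and no sample holds wild-type cells given Cre, so that effects of the variant and of Cre cannot be told apart. Cells from repeated digestions were pooled, left on plastic so that adherent cells stayed behind, and plated at about 1 heart per well. The labels give the replicates as biological without saying whether they were separate isolations.

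Actin is the globular protein that polymerizes into filaments, and mammals make it from 6 genes whose products differ in few amino acids. Actc1 (cardiac α-actin) and Acta1 (skeletal α-actin) build the thin filaments of the sarcomere, along which myosin pulls. Acta2 (smooth muscle α-actin) and Actg2 (smooth muscle γ-actin) serve contractile filaments of smooth muscle, and Acta2 is also made by activated fibroblasts and by immature heart muscle. Actb and Actg1 (cytoplasmic β- and γ-actin) form the cytoskeleton of nearly every cell. In rodent heart, Actc1 is the main sarcomeric isoform after birth, and Acta1 is known as a member of the fetal set of genes that is used again in hypertrophy.

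The likeness of the isoforms sets how well reads can be assigned to each gene, so their coding sequences were compared first. The first 60 coding bases are printed here because they hold the isoform-specific start of the protein, with capitals for bases that differ from Actc1 in an alignment of the whole coding sequence (GENCODE M21 transcripts, GRCm38, all on the minus strand, each within a coding exon).
Actc1, chr2:114051972-114052031: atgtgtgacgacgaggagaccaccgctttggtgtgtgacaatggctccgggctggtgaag
Acta1, chr8:123893638-123893697: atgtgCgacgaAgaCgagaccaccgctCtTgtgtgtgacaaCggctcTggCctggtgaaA
Acta2, chr19:34252494-34252553: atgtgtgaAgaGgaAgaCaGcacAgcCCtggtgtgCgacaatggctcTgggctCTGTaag
Actg2, chr6:83527382-83527441: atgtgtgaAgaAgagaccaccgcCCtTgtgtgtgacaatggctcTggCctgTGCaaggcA
Actb, chr5:142905627-142905686: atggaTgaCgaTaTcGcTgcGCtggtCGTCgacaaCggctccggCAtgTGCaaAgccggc
Actg1, chr11:120348032-120348091: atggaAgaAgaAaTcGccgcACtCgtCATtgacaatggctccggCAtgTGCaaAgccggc
Within these bases Acta1 differed from Actc1 at 9 positions, and Actb at 19. The open reading frames encode 377 residues in Actc1, Acta1 and Acta2, 376 in Actg2 and 375 in Actb and Actg1.

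Over the full coding sequence, base identity ran from 81.5% (Actc1 and Actg1) to 88.7% (Actb and Actg1), and Actc1 and Acta1 were 86.2% identical. The longest run of bases shared by Actc1 and Acta1 was 29, whereas Acta1 and Actb shared 77. No word of 50 bases in Actc1 or Actg2 transcripts occurred in a transcript of another gene, against 2.02% of the words of Acta1, 0.326% of those of Acta2 and 9.12% of those of Actb. For Actg1 the figure was 37.4%, mostly through the processed pseudogenes Gm12715 and Gm8399, and it was still 23.3% for words of 150 bases. How far this affects the level of Actg1 was not measured. Gm12715 itself was listed at between 8.84 and 13.8 FPKM. The read length and the treatment of reads that match several genes are not stated.

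The promoters were also read, because SRF, a transcription factor that drives many muscle and cytoskeletal genes, binds a motif named the CArG box. RefSeq promoter windows (GRCm38.p6) were at hand for Actc1, Acta1, Acta2 and Actg1, and not for Actg2 and Actb. Only exact boxes were counted, CC and GG around a run of A and T, and boxes with a mismatch were not sought. In the 250 bases before the start, searched on either strand, Actc1, Acta1 and Actg1 each held 1 exact CArG box. These begin 47, 73 and 90 bases before the start, and the window of Acta2 held no exact box. Of 27025 genes with a window, 1.62% held at least 1. The stretches are shown on the minus strand with the box in capitals.
Actc1, chr2:114052888-114052947: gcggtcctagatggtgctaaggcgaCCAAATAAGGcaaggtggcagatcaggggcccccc
Acta1, chr8:123894814-123894873: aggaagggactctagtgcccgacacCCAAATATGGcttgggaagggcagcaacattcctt
Actg1, chr11:120348551-120348610: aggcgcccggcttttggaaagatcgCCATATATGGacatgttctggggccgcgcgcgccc
The boxes describe these windows only, and no binding was measured.

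Levels are given as FPKM, fragments scaled to sequencing depth and to exon length, a unit per length in which genes can be set beside each other. Reads worked back from FPKM came to between 25.3 M and 32.4 M (M, megareads) per sample. Actin reads were between 0.934% and 1.42% of them, the highest in AdGFP replicate 1. The fewest reads behind any actin value were 627, for Actg2 in AdGFP replicate 2, so that counting error is small beside the spread between cultures. The 12 cardiomyocyte markers examined were all expressed, with a summed level of 1372 to 3915 FPKM. Transcripts of other heart cells were present as well, so the actin levels are those of mixed cultures. The fibroblast markers summed to 3403 to 6207 FPKM and the red blood cell markers to at most 2.21 FPKM.

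In AdGFP cultures Actc1 was the most abundant actin, with a mean of 3590 ± 1194 FPKM (SD, n = 3, as for all group values), and it ranked 3 among all genes listed. Next came Actb at 958 ± 111 FPKM and Acta2 at 881 ± 229 FPKM. These neighbours did not differ beyond their spread, the ratio of Acta2 to Actb being 1.07, 0.796 and 0.868 in replicates 1 to 3. This rests on summed exon lengths of 2679 bases for Actb and 2196 for Acta2. Their longest coding transcripts have 1920 and 2035 bases, lengths that would raise Actb against Acta2. Actg1 followed at 495 ± 76.8 FPKM, below Actb in every sample by a factor of 1.79 to 2.05. Acta1 averaged 106 ± 136 FPKM and Actg2 20.7 ± 6.22 FPKM. These last also overlapped, since in AdGFP replicate 3 Acta1 lay below Actg2 (ratio 0.9). The order of the means was the same in AdCre, where Actc1 ranked 11 among all genes.

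**Figure D1:**
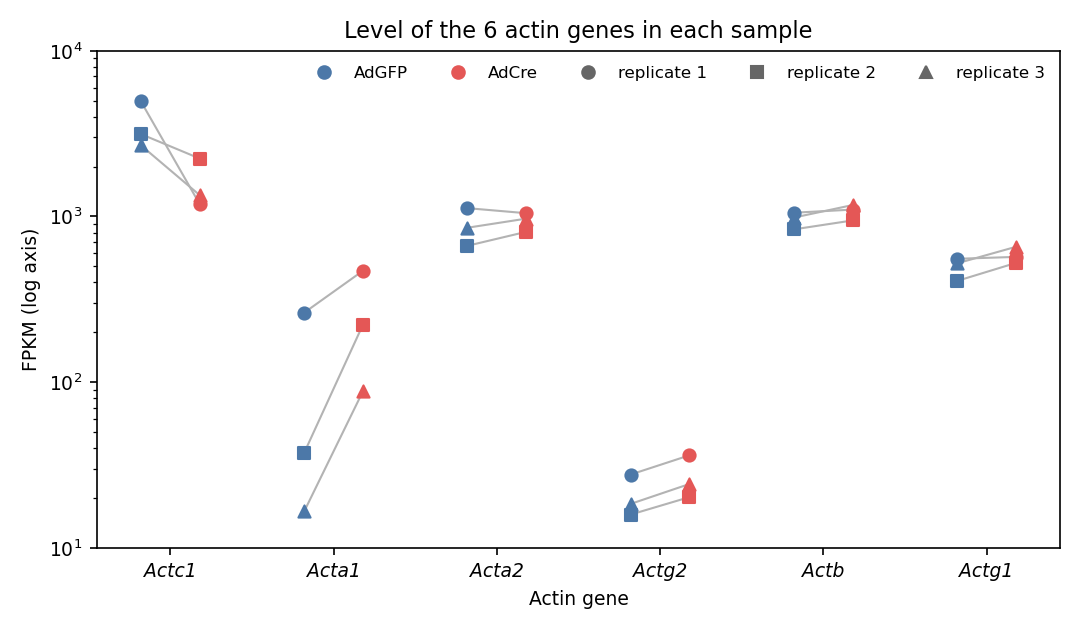
FPKM of the 6 actin genes (log axis) in each AdGFP (blue) and AdCre (red) sample, with the marker shape giving the replicate number and lines joining samples of the same number. Actc1 lies lower in every AdCre sample than in any AdGFP sample, Acta1 spans 28.4-fold over the 6 samples, and Actb and Actg1 stay within 1.4-fold and 1.61-fold.

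The comparison of AdCre with AdGFP asks which actin transcripts differ between cells given Cre, which turns on RIT1 M90I, and cells given GFP alone. Actc1 was lower and Acta1 was higher in AdCre in all 3 pairs of same-numbered samples, while the smooth muscle and cytoplasmic isoforms had log2 fold changes between 0.12 and 0.38. Each gene was tested by limma on log2(FPKM + 0.1) over all 13794 genes, first with group alone and then with the replicate number as a block. The block was used because samples of the same number deviated together across genes (correlations of 0.57, 0.27 and 0.51), although the labels do not say what a number marks. With group alone, 0 of the 6 actin genes had an adjusted p under 0.05 and 1 had an unadjusted p under 0.05, where 0.00725% and 10.2% of all genes did. With voom on the reads worked back the counts were also 0 and 1. With the block, 2 of the 6 were called, both higher in AdCre, beside 6.15% of all genes. The groups did not overlap for 1 of the 6 (15.4% of all genes), and 5 of the 6 moved the same way in all 3 pairs (48.5%).

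Actc1 (ENSMUSG00000068614, chromosome 2, 114047282 to 114053548) encodes the α-actin of the cardiac thin filament. It stood at 4943, 3141 and 2686 FPKM in AdGFP replicates 1 to 3 and at 1186, 2236 and 1344 FPKM in AdCre. Every AdCre sample lay below every AdGFP sample, and replicate 1 held both the highest and the lowest value. The log2 fold change of -1.18 (standard error 0.35) had a limma adjusted p of 0.338. An exact permutation test, two-sided, gave 0.1, below which 3 samples against 3 cannot go. Within pairs the log2 difference was -2.06, -0.49 and -0.999, and Actc1 was not called with the block (limma adjusted p 0.0726). It was called in 3 of 9 blocked settings, namely with protein-coding genes only (0.0470), with voom (0.00831) and without pair 1 (0.0406). Its log2 fold change was smaller without pair 1 (-0.744) and larger without pair 2 (-1.53).

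Transcripts that mark cardiomyocytes were read beside Actc1, since in these bulk samples fewer such cells and less RNA per cell cannot be told apart. All 12 markers, among them Myh6, Tnnt2 and Ryr2, had a log2 fold change below 0, and their summed level was 2363 to 3915 FPKM in AdGFP and 1372 to 2412 FPKM in AdCre, with overlap of the groups. By limma 0 of the 12 were called without the block, and 6 had an unadjusted p under 0.05, beside 10.2% of all genes. With the block 7 were called, all lower, beside 3.51% of all genes called lower. These 7 calls came to 0 without pair 3, a filter or a trend. Set against that sum, Actc1 stood at 1.26, 0.925 and 1.14 in AdGFP and at 0.53, 0.927 and 0.98 in AdCre. The groups overlapped on this scale (log2 difference -0.49, exact permutation p 0.3), and AdCre replicate 1 alone lay below all the others. The part of the markers in the lower level of Actc1 was not tested further.

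Acta1 (ENSMUSG00000031972, chromosome 8, 123891769 to 123894751) encodes the α-actin of skeletal muscle, which the fetal heart also makes. It stood at 263, 37.5 and 16.6 FPKM in AdGFP and at 470.2, 222 and 88.2 FPKM in AdCre. The groups overlapped, because AdGFP replicate 1 lay above AdCre replicates 2 and 3. No other actin gene varied as much among cultures of a group, with a 15.8-fold span in AdGFP and a 5.33-fold span in AdCre. Within pairs Acta1 was 1.79-, 5.93- and 5.29-fold higher in AdCre. On the log2 scale the rise was 1.94, its standard error being 1.04 without the block and 0.33 with it, for limma adjusted p-values of 0.61 and 0.0346. It was 3.07 without AdGFP replicate 1 and 1.08 without AdGFP replicate 3. Under the block it was not called without pair 2 (0.109), without pair 3 (0.146), without a filter on low values (0.123) or without a trend (0.102).

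**Figure D2:**
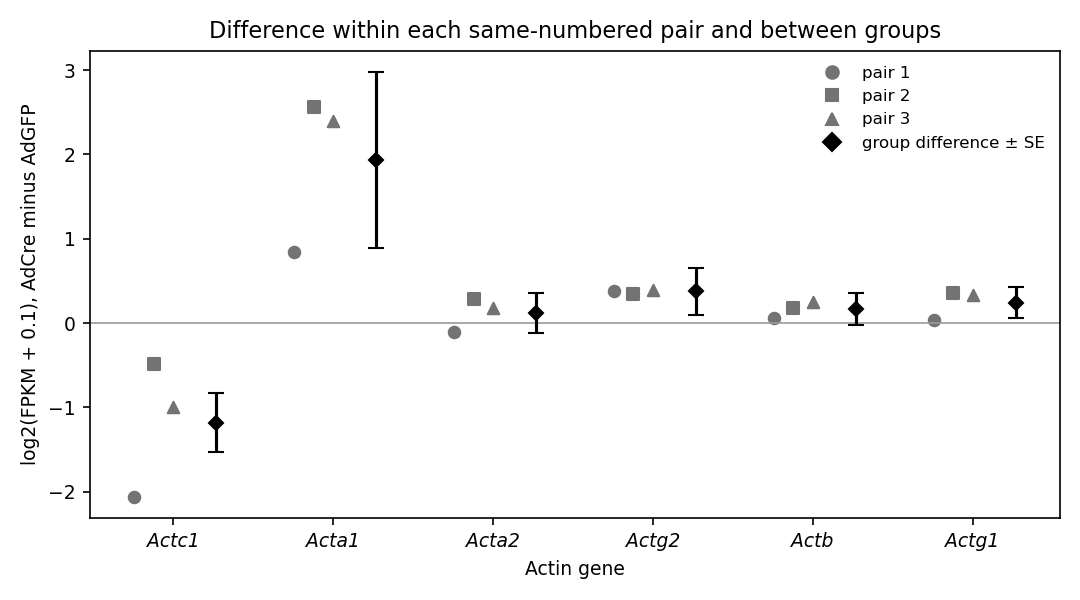
Difference in log2(FPKM + 0.1), AdCre minus AdGFP, for each actin gene: grey symbols are the 3 same-numbered pairs and black diamonds the group difference with its standard error from limma without the block. Acta1 (0.84, 2.57 and 2.40) and Actc1 (-2.06, -0.49 and -0.999) lie on opposite sides of 0 in every pair, and Actg2 repeats most closely (0.38, 0.35 and 0.40).

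Other cell types differed between replicate numbers in the same libraries. Macrophage markers summed to 45.9, 188 and 236 FPKM in AdGFP replicates 1 to 3 and to 81.7, 254.5 and 295 FPKM in AdCre. Fibroblast markers summed to 3830, 4725 and 6207 FPKM in AdGFP and to 3403, 4384 and 4783 FPKM in AdCre. Replicate 1, where Acta1 was highest in both groups, was lowest in the macrophage and fibroblast sums in both groups. It was highest in the sum of smooth muscle markers, which was 811, 458 and 332 FPKM in AdGFP and 549, 451 and 314 FPKM in AdCre. The part of these differences in the level of Acta1 was not tested.

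The balance of the sarcomeric isoforms within a library does not change when all values of that library are scaled by the same factor. Acta1 made up 5.04%, 1.18% and 0.614% of the 2 striated actins in AdGFP and 28.4%, 9.05% and 6.16% in AdCre. All 3 AdCre samples lay above all 3 AdGFP samples (exact two-sided permutation p 0.1, the smallest possible). As a share of reads in place of FPKM, AdGFP replicate 3 had the lowest value, 0.583% (95% Wilson interval 0.539% to 0.63%), and AdCre replicate 1 the highest, 27.3% (27.05% to 27.65%). These intervals cover counting error only.

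On the log2 scale the ratio of Acta1 to Actc1 was -4.24, -6.39 and -7.34 in AdGFP and -1.33, -3.33 and -3.93 in AdCre. The difference within pairs was 2.90, 3.06 and 3.41, with a mean of 3.12 ± 0.26 (SD, n = 3 pairs), that is 7.47-, 8.34- and 10.6-fold. The standard deviation of the ratio among cultures of a group was 1.59 in AdGFP and 1.36 in AdCre, so that the ratio spread far more between replicate numbers than its change did. The pairs differed in how the change was made up. In pair 1 the difference in Actc1 was the larger part (-2.06 against 0.84 for Acta1), and in pairs 2 and 3 that in Acta1 was (2.57 and 2.40 against -0.49 and -0.999). The exact permutation p of the log2 ratio was 0.1, and 0.25 after adjustment over the 15 ratios that 6 isoforms give.

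**Figure D3:**
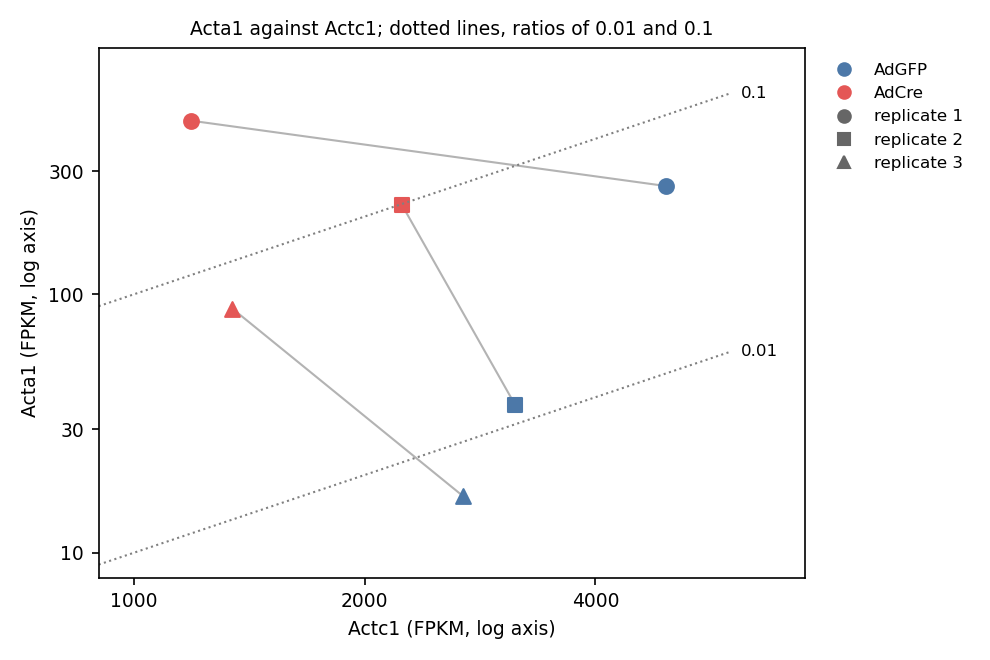
Acta1 against Actc1, both in FPKM on log axes, with a grey line joining samples of the same replicate number from AdGFP (blue) to AdCre (red) and dotted lines at ratios of 0.01 and 0.1. Each line runs up and to the left, and per 100 FPKM of Actc1 every AdCre sample has at least 6.56 FPKM of Acta1 while no AdGFP sample exceeds 5.31.

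As a share of the summed FPKM of all 6 genes, Actc1 made up 62.1%, 61.5% and 52.9% in AdGFP and 26.9%, 47.0% and 31.6% in AdCre. The mean was 58.8 ± 5.18% in AdGFP and 35.2 ± 10.5% in AdCre, a difference of -23.7 percentage points without overlap (exact permutation p 0.1, 0.12 adjusted over the 6 isoforms). Since shares sum to 100%, a lower Actc1 raises the shares of the others. Cytoplasmic actins went from 24.7 ± 4.73% to 37.3 ± 6.05%, and smooth muscle actins from 15.0 ± 1.98% to 21.8 ± 3.83%, each without overlap (exact permutation p 0.1). The striated class as a whole went from 60.3 ± 6.34% to 41.0 ± 9.48% (0.1). Acta1 alone went from 1.45 ± 1.61% to 5.81 ± 4.41%, with overlap of the groups (0.2). In summed level the 6 genes came to between 5081 and 7963 FPKM in AdGFP and between 4254 and 4757 FPKM in AdCre.

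**Figure D4:**
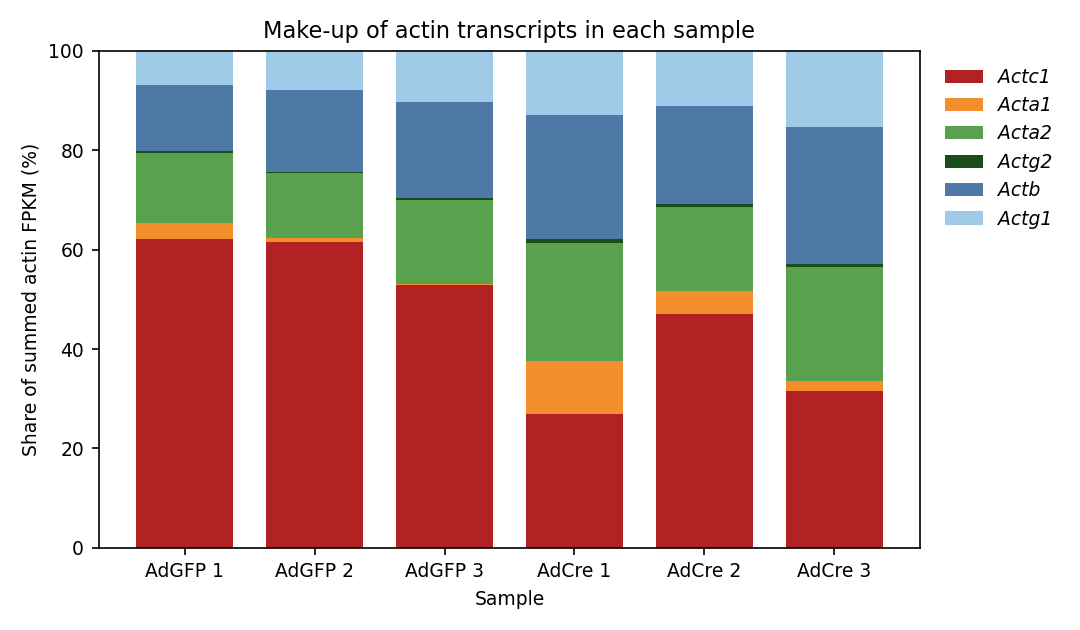
Stacked bars of each actin gene as a percent of the summed actin FPKM of a sample, for AdGFP 1 to 3 and AdCre 1 to 3. Actc1 takes 52.9% or more in AdGFP and 47.0% or less in AdCre, and the Acta1 segment is widest in AdCre 1 (10.7%).

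Among the smooth muscle isoforms, Actg2 (ENSMUSG00000059430, chromosome 6, 83512905 to 83536265) encodes the γ-actin of visceral muscle. It stood at 27.7, 15.9 and 18.4 FPKM in AdGFP and at 36.2, 20.2 and 24.3 FPKM in AdCre. The groups overlapped, while within pairs the rise was 1.31-, 1.27- and 1.32-fold. On the log2 scale the rise was 0.38, its standard error being 0.28 without the block and 0.071 with it, for limma adjusted p-values of 0.725 and 0.043. It was 0.14 without AdCre replicate 1, 0.21 without AdGFP replicate 2 and 0.61 without AdGFP replicate 1. Under the block, it was also not called when any of the 3 pairs was left out (between 0.0810 and 0.167), without a filter on low values (0.0956) or without a trend (0.113).

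Acta2 (ENSMUSG00000035783, chromosome 19, 34241090 to 34255590), the α-actin of vessel walls, stood at 1122, 665 and 855 FPKM in AdGFP and at 1046, 808 and 970.2 FPKM in AdCre. It was lower in AdCre in pair 1 (-0.10) and higher in pairs 2 and 3 (0.28 and 0.18). The log2 fold change of 0.12 (standard error 0.24) was not called in any setting, and it was -0.065 without AdGFP replicate 2, 0.31 without AdGFP replicate 1, 0.21 after rescaling to TPM and 0.26 after quantile normalization. The 10 smooth muscle markers summed to 332 to 811 FPKM in AdGFP and 314 to 549 FPKM in AdCre, and Acta2 was 1.38 to 3.10 times that sum. Des, desmin, which cardiomyocytes also make, was the largest of them at 405 FPKM in AdGFP. Myh11, the myosin of smooth muscle, averaged 2.07 FPKM in AdGFP and 2.37 FPKM in AdCre. Tagln, another smooth muscle protein, was listed at 1.59 to 3.55 FPKM, and 67.9% of its exon bases lie in exons of Pcsk7 or Gm48529. Of the 10 markers 2 had a log2 fold change above 0 (4 after rescaling to TPM), and the median was -0.19.

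The cytoplasmic isoforms were the steadiest. Actb (ENSMUSG00000029580, chromosome 5, 142903115 to 142906754) stood at 1053, 836 and 985 FPKM in AdGFP and at 1100, 946 and 1172 FPKM in AdCre, with overlap of the groups. Actg1 (ENSMUSG00000062825, chromosome 11, 120345690 to 120348542) stood at 555, 408 and 521 FPKM in AdGFP and at 570, 524 and 656 FPKM in AdCre, also with overlap. Both were higher in AdCre in all 3 pairs, by log2 fold changes of 0.16 (standard error 0.19) and 0.24 (0.19), with limma adjusted p-values of 0.846 and 0.743 without the block and of 0.333 and 0.204 with it. Without AdGFP replicate 2 the log2 fold changes were 0.069 for Actb and 0.11 for Actg1, and without AdCre replicate 3 they were 0.098 and 0.16. When AdCre replicate 2 was left out Actb stood at 0.25, as it did after rescaling to TPM (0.25), and quantile normalization put Actg1 at 0.44 (limma unadjusted p 0.0362, adjusted 0.443). Actg1 was called only with voom under the block (0.0456). The ratio of Actb to Actg1 was 1.9, 2.05 and 1.89 in AdGFP and 1.93, 1.81 and 1.79 in AdCre. Its difference between groups was -0.08 on the log2 scale, with pair differences of 0.02, -0.18 and -0.08 (exact permutation p 0.3).

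The partners of actin were then examined in lists of genes, with counts set beside the 2.64% of all genes called higher and the 3.51% called lower under the block. That balance depends on scaling, since 364 genes were higher and 484 lower under the block, but 538 and 337 after rescaling to TPM and 1005 and 733 with voom. No list member was called without the block. In the thin filament of striated muscle, 14 of 16 genes tested had a log2 fold change below 0 and the median was -0.67, against 0.00 over all genes. Under the block 8 of the 16 were called, all lower, and 6 had an unadjusted limma p under 0.05 without it (10.2% of all genes). The calls under the block came to 11 with voom, to 3 without pair 2, and to 0 without pair 3, without a filter on low values or without a trend. Actn2, the α-actinin that anchors thin filaments at the Z-disc, went from 269 to 133 FPKM (log2 fold change -1.05, limma adjusted p 0.0181 with the block). Lmod2, a leiomodin that lengthens thin filaments, went from 108 to 59.3 FPKM (-0.90, 0.0169). Tnnt2 and Tnni3, troponins of the cardiac thin filament, had log2 fold changes of -0.71 and -0.82 (0.0168 and 0.012). The thin filament and cardiomyocyte lists share Tnnt2, Tnni3, Tnnc1 and Actn2, and in the latter 7 of 12 were called, all lower, with a median of -0.80. These came to 5 without pair 2. Besides the shared Actn2, Tnnt2 and Tnni3 the 7 included Pln, a regulator of the calcium pump, at -1.31 (0.0101), and Myl2, the ventricular light chain, at -1.12 (0.00969). For Pln, 64.7% of exon bases also belong to exons of Cep85l or Gm47644.

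Genes that fold actin or turn filaments over were examined next. The folding list, which holds the CCT chaperonin and prefoldin, had 0 of 18 called with or without the block by limma (0 at an unadjusted p under 0.05 without it, 1 called with voom under the block). Its median of 0.00 was 0.23 without AdGFP replicate 1 and -0.080 without AdCre replicate 1. The smallest p-values in it were those of Cct6a, a chaperonin subunit (0.23), and Pfdn4, a prefoldin subunit (0.30), with limma adjusted p-values of 0.817 and 0.726. Other members of the actin family, such as the Arp2/3 subunits Actr2 and Actr3, had 0 of 10 called likewise (0 at an unadjusted p under 0.05, 1 with voom under the block). The median of 0.03 ranged from -0.067 without AdCre replicate 1 to 0.13 without AdGFP replicate 1. Actr2 stood at 0.25 and Actr10, of the dynactin complex, at 0.25 (limma adjusted p 0.624 and 0.686). In this list 10 genes were too low to test. Of 30 genes of filament turnover and nucleation 20 had a log2 fold change above 0 (23 after rescaling to TPM). The median of 0.07 ran from 0.013 (without AdCre replicate 1) to 0.097 (without AdGFP replicate 1) over left-out samples. It was 0.16 after rescaling to TPM. Under the block 2 of these genes were called. They were Lmod2, named above, and Fhod3, a formin of heart muscle (-0.58, limma adjusted p 0.0277 with the block), both lower. The count of this list under the block was 10 with voom (6 higher and 4 lower), 5 with protein-coding genes only, 3 after rescaling to TPM, 1 without pair 2, and 0 without pair 3, a filter or a trend.

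The SRF pathway was read because an exact CArG box lies before Actc1, Acta1 and Actg1. Of 21 genes 13 had a log2 fold change above 0, with a median of 0.10 that was 0.0022 without AdGFP replicate 2 and 0.19 without AdGFP replicate 3, and 3 were called under the block, all lower. These were Fhl2, a LIM protein of heart muscle (from 231 to 123 FPKM, -0.91, limma adjusted p 0.0103), Myocd, the SRF coactivator myocardin (-0.55, 0.043), and Zyx, a focal adhesion protein (-0.39, 0.0427). With voom under the block 10 were called, 6 of them higher and 4 lower, and the count was 1 without pair 2 or after rescaling to TPM, and 0 without pair 3, a filter or a trend. Srf itself stood at 0.01, and the coactivators Mrtfa and Mrtfb at 0.29 and 0.18 (limma adjusted p 0.53 and 0.756, and 0.138 and 0.394 with the block).

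Acta1 belongs to both the fetal heart and the skeletal muscle set, so other genes of each were examined. In the fetal and hypertrophic list, without Acta1, 10 of 13 had a log2 fold change below 0, with a median of -0.31, which was -0.022 without AdGFP replicate 1 and -0.50 without AdGFP replicate 3. Under the block 3 were called lower, namely Nppa, the atrial natriuretic peptide (-0.61, limma adjusted p 0.0421), Ankrd1, a stress-responsive repeat protein (-0.60, 0.0313), and Myl4, the atrial light chain (-0.46, 0.029). Cd44, a hyaluronan receptor, was called higher (0.64, 0.0313). These 4 calls came to 7 with voom, and to 0 without pair 2, pair 3, a filter or a trend. For Nppa, 61.5% of exon bases also belong to exons of Gm13054. Myh7, the fetal myosin heavy chain of rodent heart, averaged 8.75 FPKM with AdGFP alone and 7.11 FPKM with Cre (-0.24, limma adjusted p 0.928).

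Of 18 fast skeletal muscle genes 8 were high enough to test, and the myogenic factors Myod1 and Myog were not among them. Under the block 2 were called higher and 1 lower. Tnnt3, fast skeletal troponin T, stood at 7.59, 5.23 and 6.43 FPKM in AdGFP and at 27.7, 17.2 and 21.6 FPKM in AdCre. The groups did not overlap, and AdCre was higher by 1.76 on the log2 scale (standard error 0.21, limma adjusted p 0.102, and 0.0051 with the block). Tnni2, fast skeletal troponin I, went from 1.99 to 6.58 FPKM (1.66, 0.144 and 0.0336). Myl1, a fast myosin light chain also made in the atria, went from 63.7 to 21.5 FPKM (-1.60, 0.158 and 0.00634). The 3 calls came to 4 with voom and without pair 1, to 2 without a filter, and to 0 without pair 3 or a trend. The list as a whole had a median of -0.06, with 3 of 8 above 0 (4 after rescaling to TPM), and that median was -0.24 without AdGFP replicate 1 and 0.0067 without AdCre replicate 1.

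**Figure D5:**
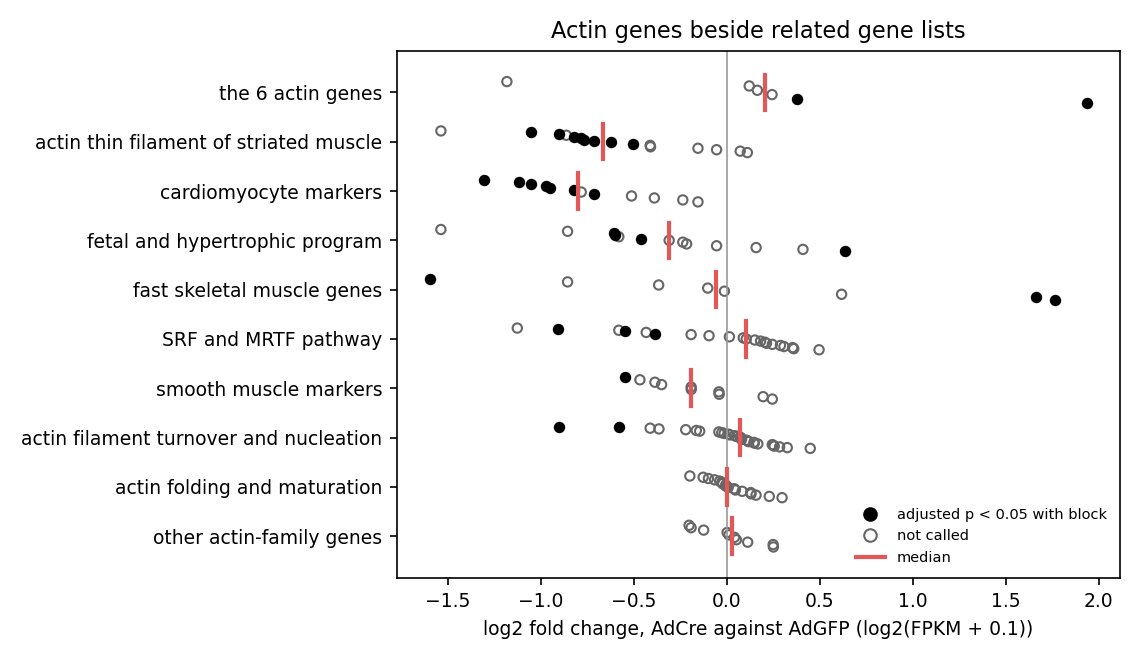
Log2 fold change of AdCre against AdGFP, on the log2(FPKM + 0.1) scale, for the 6 actin genes and 9 lists, with 1 point per gene, filled where the adjusted p under the block is below 0.05, and a red line at the median. Acta1 lies at 1.94, beyond every list gene, while the medians of the thin filament list (-0.67) and the cardiomyocyte markers (-0.80) lie below 0.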

How the data were processed

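RNA-seq was performed on 6 samples of primary mouse cardiomyocytes, 3 AdGFP and 3 AdCre, after selection of messenger RNA on poly-T beads and random priming. The authors deposited FPKM values per gene and sample, without pooling replicates. The submitters' processing notes name fastp, STAR 2.5, HTSeq 0.6.1 and the mm10 build. The annotation, gene lengths, use of strand and treatment of reads with several matches are not given in the sources used here.

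Gene IDs were matched to GENCODE M21 (GRCm38), which held 54409 of the 54532 listed. Genes averaging 0.5 FPKM or more were tested on log2(FPKM + 0.1) with limma 3.58.1 in R 4.3.3 (eBayes with trend) and Benjamini-Hochberg adjustment over all genes tested, at a threshold of 0.05. Fold changes on this scale understate those of low genes. FPKM times exon length gave whole reads, within 0.02 of a read, for 96.3% to 96.4% of genes above 0. Those reads were used for voom as an alternative. Shares and ratios were compared by exact two-sided permutation tests, for which 3 against 3 cannot give a p under 0.1. The p-values measure the spread between these samples, which may be partly technical.

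Deviations from the group mean were correlated between samples of the same number (0.57, 0.27 and 0.51), against -0.50 to 0.04 between samples of other numbers. Deviations cancel out within each group, so the low second set follows in part from the first and is not separate evidence. The numbers were therefore taken to pair the samples, and the fit with the replicate block is given where it changes a call. This rests on the data, since the labels do not say what a number marks. The limma step was tested on simulated data with independent samples, no effect of replicate number and a spread that was set beforehand. The permutation step was tested on a set of values with a known answer. Neither test bears on the pairing in these data.

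The 6 actin genes and the 15 gene lists were chosen with earlier results of these data known. Named from each list were at most 4 called genes with the smallest p, or, where none was called, the 2 with the smallest p. Srf, Mrtfa, Mrtfb, Des, Actr3, Myh6, Myh7, Myh11, Ryr2, Tagln, Tnnc1, Myod1, Myog and the pseudogenes were named in addition, after their values were seen. For each actin gene the 2 coding genes with the highest correlation were also named. The alternatives were other pseudocounts, filters, scalings, models, transcript lengths and left-out samples. Removal of the scaling factors of the authors, the log2 ratio of Acta1 to Actc1 and the ratio to summed cardiomyocyte markers were added after seeing the data.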

Additional observations from a re-analysis of the deposited data

How the results depend on the processing

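Without the replicate block, 0 of the 6 actin genes were called by limma, as also in each of 17 alternative settings. With the replicate block 2 were called (Acta1 and Actg2), as after rescaling to TPM under the block (2). The block without pair 1 also called 2 (Acta1 and Actc1), with protein-coding genes only 3, and with voom 4. It called 0 without pair 2, without pair 3, without a filter on low values and without a trend. Over all genes 848 were called with the block, 1 without it, 811, 152 and 1 when pair 1, 2 or 3 was left out under it, 1738 with voom under it, 1167 with protein-coding genes, 17 without a filter and 0 without a trend. The cause of these differences was not tested.

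The direction of Acta2 reversed to -0.065 without AdGFP replicate 2, the other samples left out in turn giving up to 0.31, and no other actin gene changed direction in any setting. Rescaling moved the median of all genes by at most 0.09 on the log2 scale. The difference in the share of striated actin ran from -24.7 to -15.7 percentage points, and that in the Acta1 percent of striated actin from 5.32 (without AdCre replicate 1) to 16.4, over samples left out in turn. The log2 ratio of Acta1 to Actc1 differed by 2.36 (without AdCre replicate 1) or more over the same. Sign-flip tests over 3 pairs cannot give a p under 0.25, and permutation p-values do not show stability in designs of this size.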

Other observations

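Markers of other heart cells were measured in the same libraries, with counts beside the 2.64% of all genes called higher and 3.51% called lower under the replicate block, a balance that turned to more higher than lower calls after rescaling to TPM and with voom. None was called by limma without the block, and under it the calls in each of these lists came to 0 without pair 2, pair 3, a filter or a trend. All 9 endothelial markers had a log2 fold change above 0, with a median of 0.41 (0.19 without AdGFP replicate 1 and 0.17 without AdCre replicate 3), and 4 were called higher under the block, or 7 with voom. Among them Flt1, a VEGF receptor, went from 10.1 to 15.4 FPKM and Eng, endoglin, from 55.8 to 81.9 FPKM, and Egfl7 and Cdh5 had log2 fold changes of 0.57 and 0.42. The markers summed to between 94.1 and 146 FPKM in AdGFP and between 138 and 205 FPKM in AdCre. All 7 macrophage markers tested lay above 0 as well, with a median of 0.51, but the median was -0.0021 without AdGFP replicate 1 and 0.13 without AdCre replicate 3. Of the 7, 1 was called, Lyz2 (lysozyme, 0.51, limma adjusted p 0.0497 with the block), and 4 with voom under the block.

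Epicardial and mesothelial markers went both ways. Their median of -0.38 turned to 0.092 when AdGFP replicate 3 was left out. It was -0.029 without AdCre replicate 2, and -0.72 when AdGFP replicate 1 was removed. The block called 4, or 7 without pair 1. The keratins Krt8 (from 48.4 to 122.9 FPKM) and Krt18 (from 107 to 189 FPKM) were called higher under the block, and Tbx18 (-0.45) and Lrrn4 (-1.50) lower. After rescaling to TPM under the block 2 were called higher and 0 lower. Of 11 fibroblast markers 3 were called lower, namely the matrix genes Dcn (-0.79), Lum (-0.49) and Col3a1 (-0.47), and Thy1 was called higher (0.40). The median of -0.24 was -0.56 without AdGFP replicate 1 and -0.049 without AdCre replicate 1, and without pair 1 the block called 1. Of 7 pericyte markers Mcam alone was called (0.43). Their median of 0.07 turned to -0.21 without AdGFP replicate 1, to -0.22 without AdGFP replicate 3 and to -0.098 without AdCre replicate 2. None of the 6 red blood cell genes was high enough to test.

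As a description over 6 samples that share 2 groups and 3 replicate numbers, the coding genes most like each actin gene were sought among 12420. For Actc1 these were Phf10 and Lta4h (Pearson r of log2 values 0.997 and 0.994), and for Acta1 Nr4a2 and Myo1e (0.995 and 0.995). For Acta2 they were Trmt13 and Btaf1 (0.992 and 0.991), for Actg2 Gnb1 and Eif2b3 (0.997 and 0.996), for Actb Cchcr1 and Btbd19 (0.994 and 0.994), and for Actg1 3830403N18Rik and Gxylt1 (0.988 and 0.987). These were picked as the highest of all genes, so they carry no test.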
